A study of Cricetiscus sungorus with 216 samples.

Results

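The nuclear-encoded subunits of the oxidative phosphorylation complexes were followed in 4 tissues of Djungarian hamsters that were held in a long photoperiod (LP) or moved to a short photoperiod (SP). Members were chosen by symbol alone: the names beginning Nduf with a, b, c, s or v, Uqcr, Cox4 to Cox8 and Atp5, leaving out the Ndufaf assembly factors. The mediobasal hypothalamus (MBH) table held 87 members of 20156 symbols, that of the pituitary 89 of 22482, that of the paraventricular nucleus (PVN) 54 of 18960 and that of the dorsomedial hypothalamus (DMH) 94 of 21821. Together they gave 108 symbols, of which 39 stood in all 4 tables. The rule also took in processed copies of these genes, such as Cox7c-ps1, and they are counted as members throughout. There were 7 in MBH, 12 in pituitary, 0 in PVN and 13 in DMH, of which 5, 1, 0 and 11 were among the members tested.

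Oxidative phosphorylation makes most of the ATP of a neuron or an endocrine cell. Complex I (Nduf) passes electrons from NADH to ubiquinone, complex III (Uqcr) hands them to cytochrome c, complex IV (Cox) passes them to oxygen, and complex V (Atp5), the ATP synthase, uses the proton gradient so made to build ATP. Each of these complexes joins subunits encoded in the nucleus with subunits encoded in mitochondrial DNA, so the nuclear genes are commonly read as a set whose products are needed in fixed proportions. Complex II, which lies beside them in the chain, was treated as a separate list.

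The animals were adult males, 3 to 8 months old, kept at 16 h of light per day in LP or 8 h in SP. The 9 groups were LP and SP for 4, 8, 12, 16, 20, 24, 28 and 32 weeks, with 6 hamsters in each, and every one of the 54 hamsters gave MBH, pituitary, PVN and DMH libraries, 216 in all. LP was represented by a single group, so every SP week was compared with the same 6 LP libraries. Hamsters in SP pass from a summer to a winter state and later return to the summer state without a change of light, and the study asked which transcripts follow that interval timer. RNA was read as cDNA on Oxford Nanopore flow cells from dissected tissue, and in such bulk samples fewer cells of a type and less RNA per cell cannot be told apart.

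Library totals ran from 5996 to 13208400 counts in MBH, 29221 to 523547 in pituitary, 159 to 998247 in PVN and 149289 to 9084080 in DMH. The predicted gene Gm32262 made up 8.33 to 65.7% of counts per MBH library and 13.5 to 69.1% per DMH library, and Lars2 took 8.05 to 32.2% in pituitary, so all levels are given as CPM, the count scaled to a common library total from which these 2 genes were left out. Among the remaining genes the 10 with the highest mean share were the same 10 in MBH and DMH, led by Akap5 and Gm33937. Their share per library was 4.20 to 83.2% in MBH and 21.4 to 93.3% in DMH, against 33.7 to 74.5% for the pituitary's own leading 10 and 5.68 to 57.5% for those of PVN. Markers of the pituitary ran there from growth hormone (Gh), with a mean of 74052 CPM, and Pomc, with 15949 CPM, down to Fshb with 19.6 CPM. Among the 7 arcuate markers in MBH, Pomc averaged 225 CPM, Cartpt 171 CPM, Npy 158 CPM and Agrp 64.9 CPM. Tac2 averaged 16.9 CPM, Kiss1 4.69 CPM and Ghrh 0.309 CPM. Pomc is also a pituitary marker, and the pituitary marker Cga averaged 296 CPM in MBH. In PVN, 3 of the 6 markers of that nucleus stood in the table: the thyrotropin-releasing hormone gene Trh averaged 149 CPM, Otp 8.34 CPM and Sim1 1.22 CPM, while Pmch, of the lateral hypothalamus, averaged 255 CPM. In DMH the markers Npvf, Ppp1r17 and Grp each stayed under 1 CPM on average and Pmch averaged 59.1 CPM.

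Not all of the machinery could be seen in every tissue. The MBH members comprised 45 symbols of complex I, 8 of complex III, 17 of complex IV and 17 of complex V. The pituitary table gave 44, 9, 17 and 19, and the DMH table gave 46, 9, 20 and 19. The PVN table held 37 members of complex I and 17 of complex V. Complexes were assigned by the start of the symbol, so Ndufa4, known as a subunit of complex IV, was counted with complex I throughout. Uqcr and Cox symbols were not analysed in PVN. Its table followed another annotation, with the newer ATP synthase names (Atp5f1a for Atp5a1, the catalytic head's alpha subunit). After the filter on low counts, 76 members were tested in MBH, 17 in pituitary, 52 in PVN and 81 in DMH. 6 symbols were tested in all 4 tissues and 10 in none.

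Some subunits were read in PVN and hardly at all in the other tables. Ndufs5 gathered 16 counts over the 54 MBH libraries and Ndufa2, a small accessory subunit, 17, whereas the PVN table gave them 7916 and 12667 counts. The epsilon subunit of the ATP synthase stalk had 174 counts in MBH, 6 in pituitary and 85 in DMH, where it was listed as Atp5e, and 7490 in PVN, where it was listed as Atp5f1e. Tissue and table cannot be told apart here, so these were not read as differences between tissues.

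Where the genome holds a common and a tissue-restricted form of a complex IV subunit, the common form carried nearly all counts in the tables as deposited. Cox4i1 had 34780 counts in MBH against 188 for Cox4i2, the form known from lung and from low oxygen. Cox6b1 had 20762 counts against 9 for Cox6b2, a testis form. Cox7a2 had 12674 against 11 for Cox7a1 and Cox8a 15049 against 3 for Cox8b, Cox7a1 and Cox8b being the forms of heart and muscle. The same order held in DMH, with 18442 counts for Cox4i1 against 13 for Cox4i2 and 7394 for Cox6a1 against 1 for the muscle form Cox6a2. In pituitary Cox4i1 had 656 counts and Cox4i2 had 16. Whether the low counts come from expression or from the table, as with Ndufs5 and Ndufa2 above, was not tested.

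For some members the summed count depends on how reads were spread over isoforms. Atp5j, coupling factor 6 of the peripheral stalk, had the highest summed count in MBH, 217556, but it was listed as 14 isoforms and its best isoform held 15769. By the best isoform alone Atp5md, a small membrane subunit of the synthase, came first in MBH with 31326 counts, in DMH with 18417 and in PVN with 23728. Over members with several isoforms and at least 5 counts in the top isoform, all isoforms carried exactly equal counts in 38.8% of the gene and library pairs in MBH, 50.3% in pituitary, 24.4% in PVN and 44.99% in DMH. The copies Ndufb4, Ndufb4b and Ndufb4c had equal counts in 50 to 53 of the 54 MBH libraries, so these 3 cannot be told apart. Of the isoform counts above 0, 99.1% in MBH, 97.6% in pituitary, 99.6% in PVN and 98.5% in DMH were whole numbers. Whether equal counts are reads repeated over isoforms or shared among them was not tested. A summed count may therefore hold a read more than once. Levels are therefore compared for a gene between groups, and an order of genes by count is given for the tables as deposited, with no correction for transcript length.

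As deposited, the highest mean level in MBH belonged to Atp5j with 3438 CPM, followed within the other complexes by Cox5a with 573 CPM, Ndufb9 with 402 CPM and Uqcrq with 286 CPM. In pituitary the corresponding members were Atp5j with 1123 CPM, Ndufb2 with 164 CPM, Cox4i1 with 136 CPM and Uqcrq with 79.1 CPM. Complex V in PVN was led by Atp5md with 1847 CPM and complex I by Ndufs8, a core iron-sulphur subunit, with 1516 CPM. In DMH the leaders were Atp5j with 1194 CPM, Cox4i1 with 224 CPM, Ndufa13 with 159 CPM and Uqcrb with 102 CPM.

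The share of each complex among the member counts stayed within narrow limits in MBH although the libraries differed widely. Complex V took 45.2% of all member counts there and 41.5 to 48.8% of those of a single library. Complex I took 33.1% (28.5 to 36.7% by library), complex IV 16.6% (13.5 to 19.1%) and complex III 5.02% (4.17 to 8.73%). DMH gave 43.5, 31.6, 18.9 and 6.00% for complexes V, I, IV and III, and pituitary 50.6, 29.6, 14.8 and 5.02%. The ranges by library were wider there. Complex V took 28.3 to 48.4% in DMH and 36.4 to 65.2% in pituitary, and complex I 23.6 to 47.2% and 15.7 to 41.5%. These are shares of the counts as deposited, and in MBH, DMH and pituitary complex V includes Atp5j summed over 14 isoforms. In PVN complex I, with Ndufa4 in it, took 56.8% and complex V 43.2% of a member set that by symbol held only these 2 complexes.

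**Figure D1:**
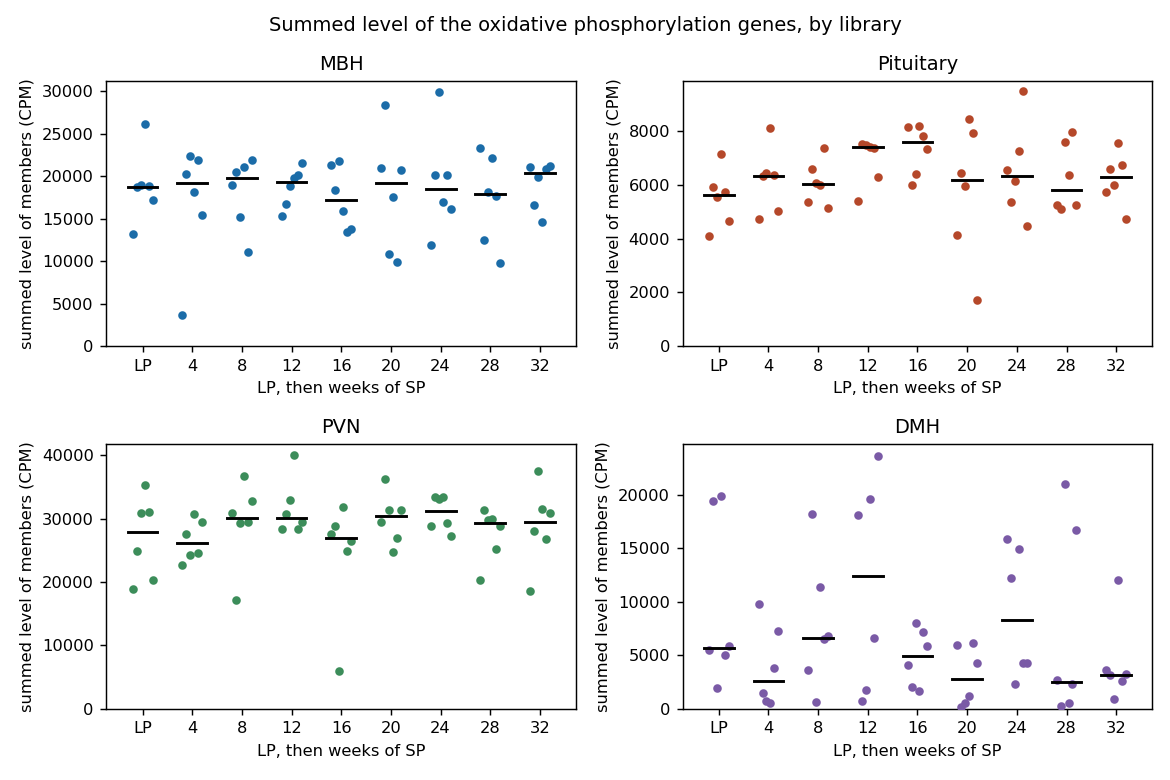
Summed level of all members in each library, in CPM without Gm32262 and Lars2, by group (x axis: LP, then weeks of SP; dots: the 6 libraries; bars: group medians; each panel has its own y scale). The MBH, pituitary and PVN medians lie close together across groups, while DMH libraries of one group run from near the bottom of the axis to 23570 CPM.

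The summed level of the members in MBH had a group median of 18754 CPM in LP, with 13204 CPM in the lowest and 26128 CPM in the highest library. Across the SP weeks its median lay between 17136 CPM at week 16 and 20382 CPM at week 32, and the LP range overlapped that of every week. The coefficient of variation over the 54 libraries was 25.7%, and the median within groups was 23.2%. The members thus varied among hamsters of one group nearly as much as over the whole series.

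The pituitary sum had a median of 5637 CPM in LP (4108 to 7142 CPM), which was the lowest of the 9 groups. Its highest median was 7582 CPM at 16 weeks SP (6002 to 8203 CPM), and the libraries of the 2 groups overlapped. PVN medians ran from 26135 CPM at week 4 to 31270 CPM at week 24, with 27923 CPM in LP (18868 to 35372 CPM). The LP library at 18868 CPM held 159 counts in all, of which 3 were of members. The PVN groups overlapped throughout.

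DMH stood apart in its spread. Its LP libraries ran from 1913 to 19872 CPM with a median of 5691 CPM, and those of week 12 from 691 to 23570 CPM with a median of 12355 CPM. The lowest group median, 2538 CPM, was that of week 28. The coefficient of variation was 95.3% over all DMH libraries and 84.6% within groups. Here the sum was low where the share of the 10 leading genes was high. The week 12 libraries at shares of 21.4 and 26.4% had member sums of 19549 and 23570 CPM. The library with 93.3% in the leading genes, of week 20, had the lowest member sum of all, 189 CPM. Share and sum are parts of the same library total, so this relation is in part set by arithmetic. With the 10 genes left out of the total the coefficient was 38.5%, and with TMM factors, which scale libraries on the bulk of genes, it was 23.9%, where the group medians lay between 3715 and 4621 CPM. The same 2 scalings gave 16.0 and 16.1% in MBH, and 26.1 and 19.9% in pituitary. In PVN they gave 18.5 and 25.9%.

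**Figure D2:**
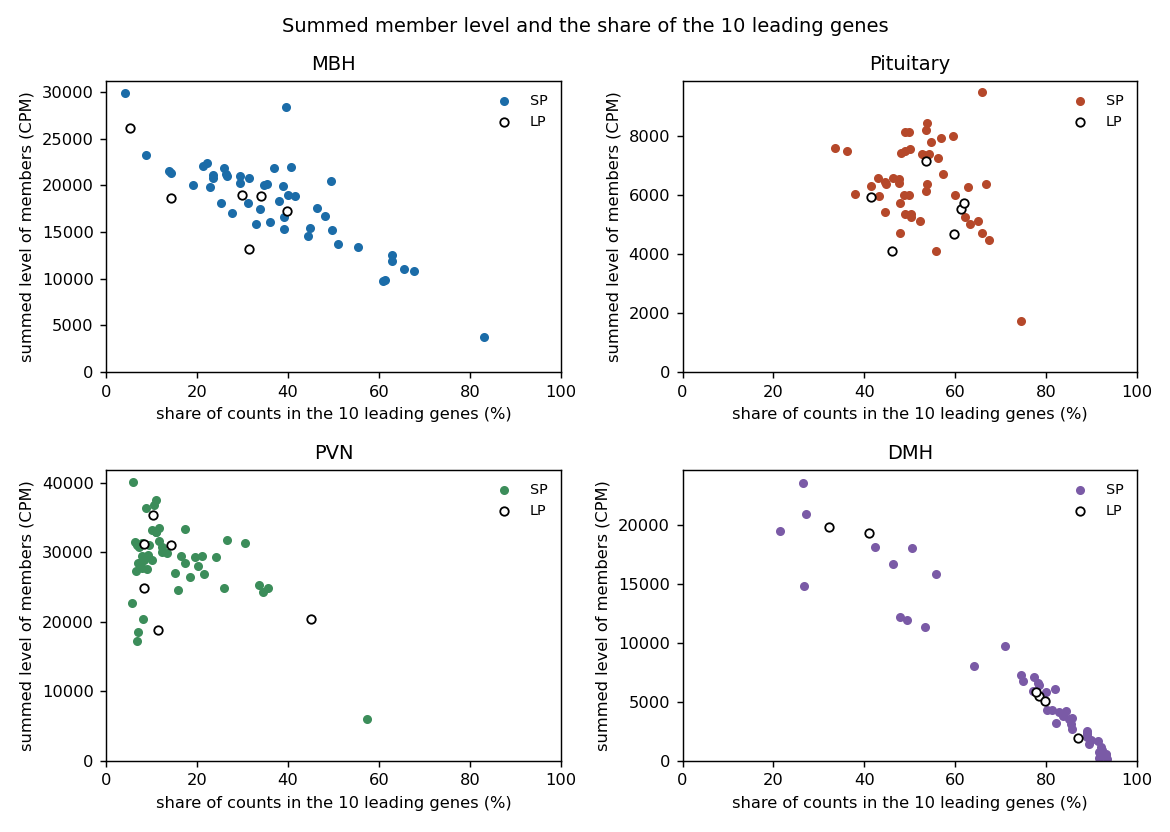
Summed member level in CPM (y axis) against the percentage of a library's counts in the tissue's 10 leading genes (x axis), one point per library, with LP drawn as open circles. In DMH the sum goes from 19549 CPM at a share of 21.4% to 189 CPM at 93.3%, and the lowest MBH library, at 3713 CPM, is the one with 83.2%. Both axes are parts of the same library total, so their relation is in part set by arithmetic.

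Over the 9 groups, no member differed at a false discovery rate (FDR) under 0.1 in any tissue by edgeR's quasi-likelihood test. In MBH 4 of the 8971 genes tested passed (0.0446%), in pituitary 6 of 1602 (0.375%), in PVN 0 of 4190 (0%) and in DMH 6 of 6693 (0.0896%). At an unadjusted p under 0.05 there was 1 member in MBH, Ndufb2, or 1.32% of the members tested against 1.85% of all genes. In pituitary, PVN and DMH there were 0 such members, where 5.62%, 1.17% and 4.77% of all genes had such a p. DESeq2 likewise called 0 members over the groups, with 1, 1, 1 and 0 members at an unadjusted p under 0.05 in MBH, pituitary, PVN and DMH.

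The 5 members with the smallest p over the groups in MBH were Ndufb2, Ndufa4l2, Ndufb6, Uqcrfs1, the Rieske iron-sulphur protein of complex III, and Ndufa4, named for complex I but known as a subunit of complex IV. In pituitary they were Atp5g3, Ndufb9, Ndufs1, Ndufb2 and Atp5l, a small membrane subunit of the synthase. In PVN they were Ndufv1, Atp5f1a, Atp5mc3, Ndufs7 and Ndufb8, and in DMH Ndufb2, Atp5md, Uqcrc2, Cox7a2l and Cox6c. Each had adjusted p = 1.00 by edgeR. Ndufb2 was the only member among the 5 in 3 of the tissues.

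A search for rhythm over the 32 weeks with empirical JTK (eJTK), a rank test against wave shapes, also called 0 members in each tissue. The study used empirical JTK too, but on transcripts and with the classic waveform set of BioDare. Here the waves were asymmetric cosines of 18 to 35 weeks on isoform sums, with LP placed at the start. The search called 6 of all genes in MBH (0.0669%), 1 in pituitary (0.0624%), 0 in PVN (0%) and 0 in DMH (0%). Members at an unadjusted eJTK p under 0.05 numbered 1 in MBH, 3 in pituitary, 2 in PVN and 0 in DMH, against 4.51%, 4.43%, 5.18% and 2.27% of all genes. The 3 in pituitary were Atp5g3, Ndufb2 and Ndufb9, with eJTK p of 0.0323, 0.0247 and 0.0226 and adjusted p of 0.908, 0.892 and 0.892. The 2 in PVN were Ndufv1 and Atp5f1a.

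Set against LP week by week, no member reached FDR 0.1 by edgeR at any of the 8 SP weeks. The tests made up 608 member and week pairs in MBH, where 0.0181% of all gene and week pairs passed, 136 in pituitary (0.039%), 416 in PVN (0%) and 648 in DMH (0%). At an unadjusted p under 0.05 there were 11 pairs in MBH (1.81% against 2.75% of all pairs), 8 in pituitary (5.88% against 5.29%), 6 in PVN (1.44% against 1.87%) and 1 in DMH (0.154% against 3.63%). DESeq2 called 0 and gave 16, 8, 7 and 8 pairs at an unadjusted p under 0.05. By the exact permutation test on plain CPM, 5, 5, 11 and 23 pairs had p under 0.05, or 0.822, 3.68, 2.64 and 3.55% of the member pairs against 4.44, 3.12, 3.92 and 4.86% of all pairs. In no tissue did all 6 SP libraries of a member lie on one side of all 6 LP libraries, a separation seen in 0.0209% of all MBH pairs upwards and 0.187% downwards. In pituitary these shares were 0.0234 and 0.101%, in PVN 0.128 and 0%, and in DMH 0 and 0.071%. In PVN an LP library of 159 counts read 108 genes and 3 members. A gene at 0 there could not separate downwards, so the PVN value in that direction is no result. The exact tests in PVN include this library.

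**Figure D3:**
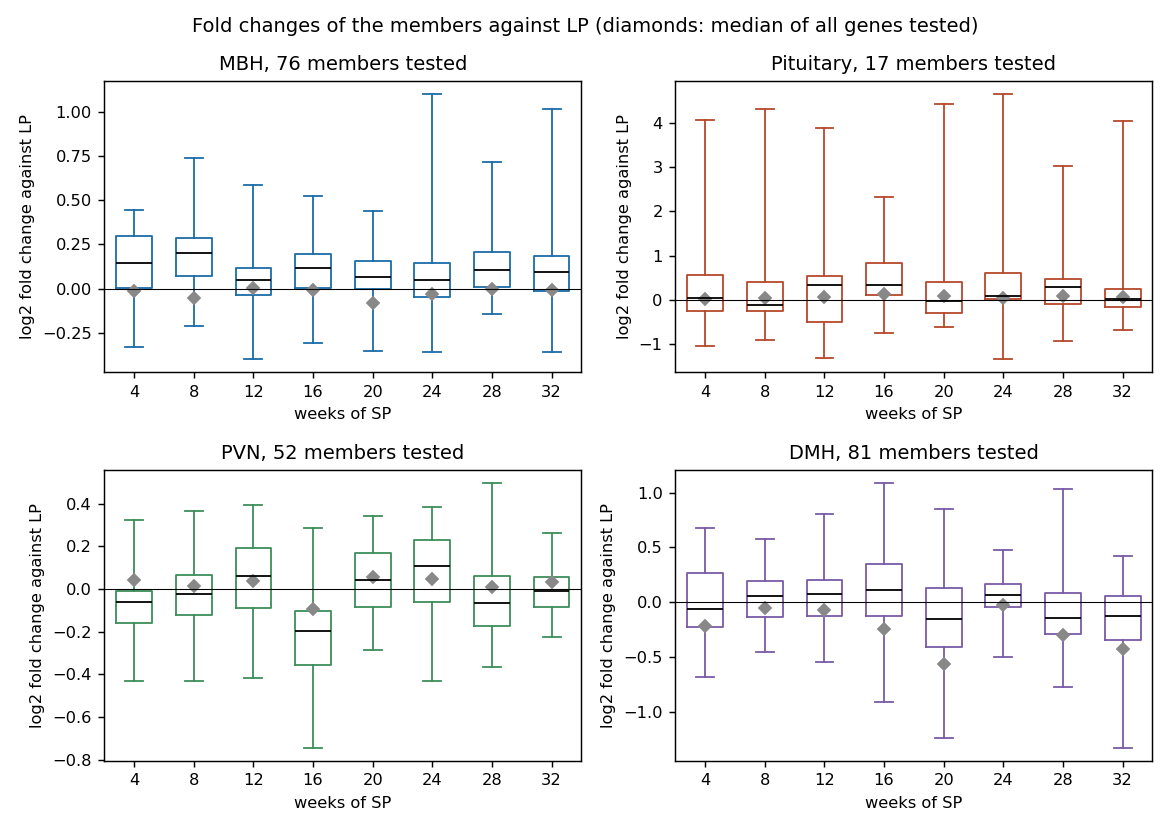
Log2 fold changes of the tested members at each SP week against LP (boxes: quartiles with the median line; whiskers: lowest and highest member; diamonds: median of all genes tested; each panel has its own y scale). MBH member medians lie between 0.05 and 0.20 at every week with TMM factors (-0.26 to 0.06 without them), and the upper whiskers of the pituitary are set by Ndufs1.

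The direction of the MBH members against LP turned with the scaling. With TMM factors their median log2 fold change was 0.15, 0.20, 0.05, 0.12, 0.07, 0.05, 0.11 and 0.09 at weeks 4 to 32, while the median over all genes tested lay between -0.08 and 0.00. At 8 weeks 65 of the 76 tested members were above 0. By library totals without TMM factors the member median was below 0 at 7 of 8 weeks, from -0.26 at week 20 to 0.06 at week 24, and that of all genes lay between -0.44 and -0.05. The member median was the higher of the 2 at each week under both scalings. All 8 medians rest on the same 6 LP libraries, and the 11 pairs with an unadjusted p under 0.05 were all higher in SP, where 1.22% of all gene and week pairs were. They were Cox6a1, Ndufa4l2, Ndufb2 and Ndufv3 at 2 weeks each, and Ndufa4, Ndufb6 and Ndufs8 at 1 week each.

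The winter state was tested as weeks 12 to 20 of SP together against LP. By edgeR 0 members passed FDR 0.1 in each tissue, against 0.1%, 0.125%, 0% and 0% of all genes in MBH, pituitary, PVN and DMH. At an unadjusted p under 0.05 there were 0, 1, 1 and 0 members, and 3.68%, 4.49%, 2.17% and 5.95% of all genes. DESeq2 gave 1, 2, 1 and 3 such members and also called 0. The median member log2 fold change was 0.07 in MBH (all genes -0.04; -0.15 and -0.27 without TMM factors), 0.16 in pituitary (0.07), -0.03 in PVN (0.00) and 0.01 in DMH (-0.31).

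How large a change could have gone unseen differed by tissue. The 95% interval of the fold change lay within 2-fold in either direction for 75 of 76 members in MBH and 52 of 52 in PVN, and within 1.5-fold for 63 and 19 of them. In DMH 41 of 81 intervals lay within 2-fold and 0 within 1.5-fold. In pituitary, with 82 to 2004 member counts per library, only 4 of 17 lay within 2-fold, so for the other 13 members a 2-fold difference was not excluded. All these intervals take the TMM factors as given and leave out the error of scaling. Without TMM factors the median member log2 fold change was -0.15 in MBH and -0.83 in DMH.

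**Figure D4:**
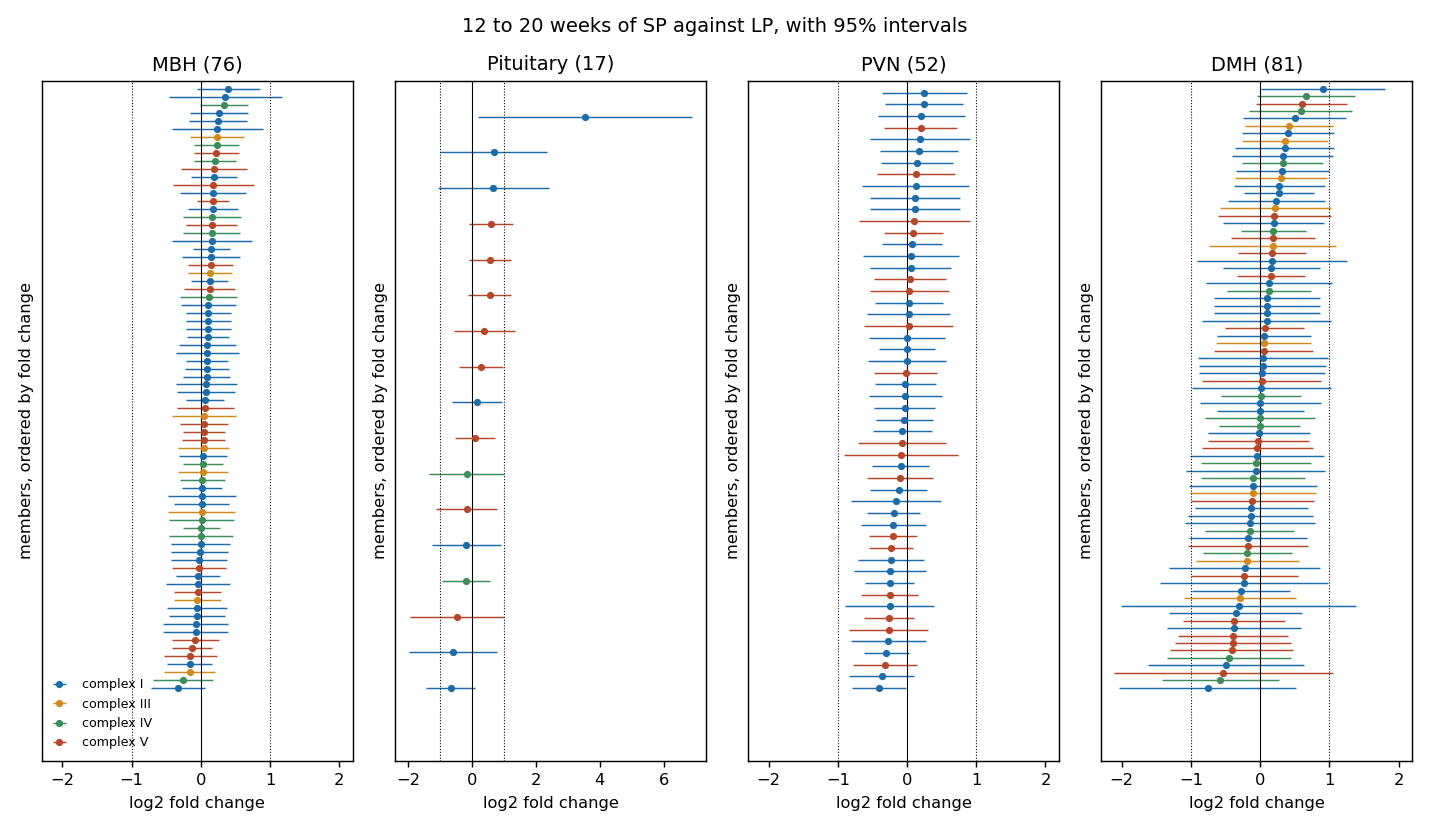
Log2 fold change of each tested member in 12 to 20 weeks of SP against LP with its 95% interval, ordered by size and coloured by complex (dotted lines: 2-fold; the pituitary panel has a wider x scale). Intervals are short in MBH and PVN, wider in DMH, and the top pituitary point is Ndufs1 at 3.54.

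The subunits were also described by role, with TMM factors. In MBH the 7 core subunits of complex I, which carry the flavin and iron-sulphur centres, had a median log2 fold change of -0.02 (Ndufs3 -0.33 to Ndufs1 0.24). The 28 tested accessory subunits of complex I had 0.09 (Ndufb2 -0.08 to Ndufv3 0.40). The 12 tested members of complex IV had 0.07, with 11 above 0, from Cox7a2l at -0.26 to Cox6a1 at 0.33; without TMM factors 3 were above 0. The c ring of complex V, encoded by Atp5g1, Atp5g2 and Atp5g3, had 0.14, and its catalytic head and central stalk had -0.02. Without TMM factors the c ring had -0.05 and the head and stalk -0.28.

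In PVN the 7 core subunits of complex I were all below 0 in weeks 12 to 20 against LP, from Ndufv1 at -0.40 to Ndufs8 at -0.20, with a median of -0.25. The 28 tested accessory subunits had a median of 0.01, with 15 above 0. In weeks 24 to 32 against weeks 12 to 20 the same 7 were all above 0, with a median of 0.21, against 0.02 for the accessory subunits. A fall and rise was not particular to them. In the 2 contrasts the complex V head and central stalk had -0.25 and 0.10, and the peripheral stalk -0.18 and 0.07. The c ring had -0.02 and 0.06, and the small membrane subunits 0.10 and 0.06. Glycolysis had -0.13 and 0.14, neuron markers -0.21 and 0.10, mitochondrial ribosomal proteins -0.12 and 0.14, and cytosolic ones 0.10 and 0.00. Both contrasts use the libraries of weeks 12 to 20, and the split by role was made after the values were seen and was not tested.

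In DMH the head and central stalk of complex V had a median of -0.25 with 0 of 4 members above 0, and the small membrane subunits had 0.16 with 5 of 5 above 0. Without TMM factors these medians were -1.04 and -0.65, with 0 members above 0 in either. In pituitary 0 members of complex III passed the filter on low counts. The 8 tested members of complex V there had a median of 0.34, with 6 above 0. They included Atp5l and its processed copy Atp5l-ps1, whose 597 counts equalled those of the best Atp5l isoform. At week 20 both were among the 8 pituitary pairs with an unadjusted edgeR p under 0.05.

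The return phase was tested as weeks 24 to 32 against weeks 12 to 20 of SP. Again 0 members passed FDR 0.1 by edgeR, where 0.0111%, 0.25%, 0% and 0% of all genes did in MBH, pituitary, PVN and DMH. At an unadjusted p under 0.05 there were 2, 1, 2 and 0 members, against 2.95%, 5.24%, 2.82% and 3.75% of all genes, and DESeq2 gave 2, 1, 3 and 1 with 0 called. The intervals lay within 1.5-fold for 74 of 76 members in MBH and 48 of 52 in PVN, within 2-fold for 73 of 81 in DMH and within 2-fold for 10 of 17 in pituitary.

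In MBH the member with the smallest p over the groups and in the return phase was Ndufb2, an accessory subunit of the membrane arm of complex I. It read 182 CPM in the lowest LP library, 302 CPM at the median and 366 CPM in the highest. At 20 weeks SP the values were 0, 158 and 280 CPM, and at 32 weeks 279, 381 and 609 CPM. The week 20 libraries thus lay low and those of weeks 28 and 32 high, but every week overlapped LP, and the library at 0 was the one of 5996 total counts.

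Ndufb2 had a log2 fold change of 0.60 ± 0.17 (SE) in weeks 24 to 32 against weeks 12 to 20 in MBH, with a 95% interval of 0.26 to 0.93 and adjusted p = 0.583 by edgeR. Over the 9 groups it had adjusted p = 1.00, and its eJTK p was 0.014 before and 0.977 after adjustment. Against LP the winter weeks gave -0.08 ± 0.23. Under 18 settings of the analysis the fold change of the return phase lay between 0.31 and 0.68 and its adjusted p between 0.107 and 1.00, the lowest with the best isoform in place of the sum.

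**Figure D5:**
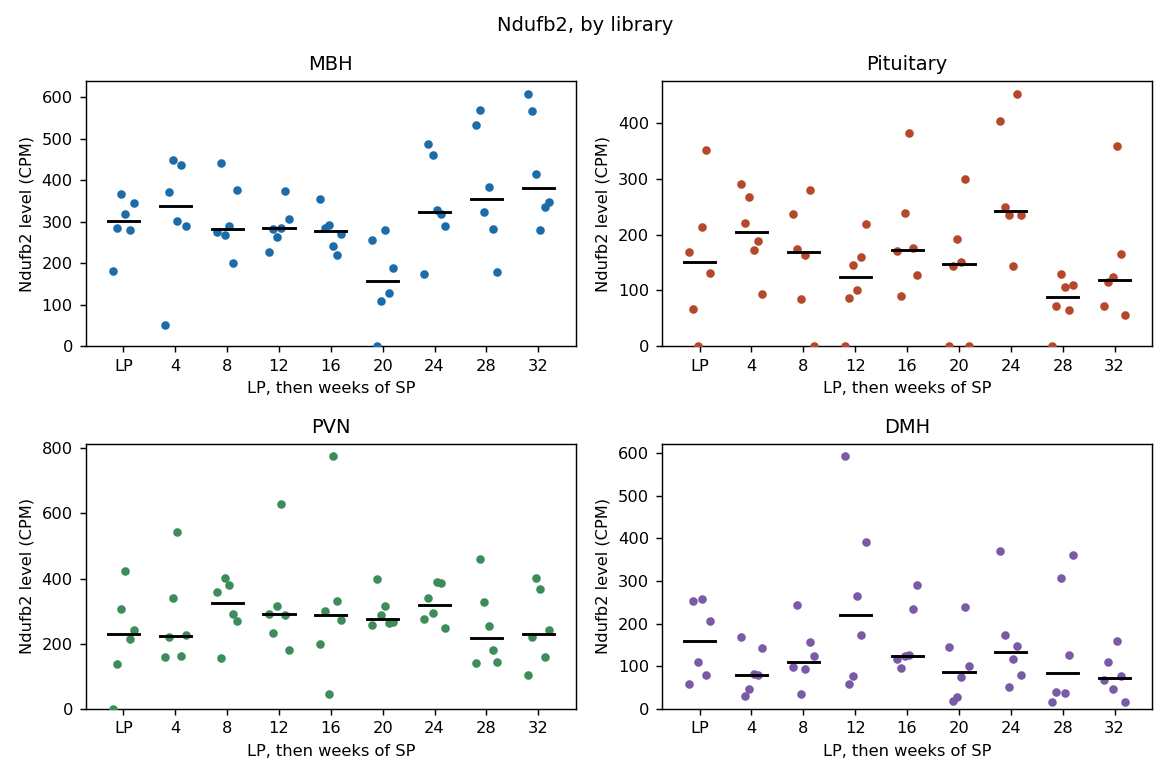
Ndufb2 level in CPM in each library (x axis: LP, then weeks of SP; dots: the 6 libraries of a group; bars: medians; each panel has its own y scale). In MBH the median is 302 CPM in LP, 158 CPM at week 20 and 381 CPM at week 32, with overlapping libraries, and the other tissues have other week orders.

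In the other tissues Ndufb2 took other courses. DMH gave 0.91 ± 0.45 for weeks 12 to 20 against LP (adjusted p = 0.836 by edgeR) and -0.60 ± 0.32 for the return phase (adjusted p = 1.00). Under 18 settings the first of these lay between 0.01 and 1.17, with an adjusted p between 0.297 and 1.00, the lowest without replicate 3. The DMH levels were 58.6, 158 and 258 CPM (lowest, median, highest) in LP and 58.6, 219 and 593 CPM at week 12, and the 2 groups overlapped. The return phase gave -0.10 ± 0.22 in PVN and 0.10 ± 0.38 in pituitary. Whether the tissues differ was not tested.

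Ndufv3, a flavoprotein subunit of complex I, and Cox6a1, of complex IV, had the highest winter fold changes of their complexes in MBH. Ndufv3 read 49.6, 65.5 and 97.4 CPM in LP and 43.5, 85.1 and 109 CPM at week 16, with 0.40 ± 0.23 over weeks 12 to 20. Cox6a1 read 129, 173 and 260 CPM in LP and 138, 199 and 250.5 CPM at week 16, with 0.33 ± 0.17 over weeks 12 to 20. Both genes overlapped with LP at every week, and their adjusted p by edgeR was 1.00. Atp5j read 2075, 3373 and 4819 CPM in LP and had 0.22 ± 0.16, also with an adjusted p of 1.00.

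Ndufs1, the largest core subunit of complex I, gave the widest pituitary values. Its log2 fold change in weeks 12 to 20 against LP was 3.54 ± 1.66 (adjusted p = 0.933 by edgeR), and 6 of the 8 pituitary pairs with an unadjusted p under 0.05 were this gene. LP rested on 2 counts, in 2 of 6 libraries, so the fitted value depends on the fit's small added count. As a ratio of pooled counts, 157 against 2, it was 18.5 with a 95% counting interval of 5.04 to 154. The gene was listed as 11 isoforms, and its 428 summed counts over all 54 libraries came to 46 by the best isoform. By that isoform the pooled counts were 16 against 1 and the ratio was 3.77, with an interval of 0.586 to 158. Both intervals cover counting error at most. The interval of the summed counts takes them as independent and is too narrow if reads were repeated over isoforms. The SP libraries of Ndufs1 also included zeros in every week.

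Atp5g3, a gene of the c ring of the ATP synthase, read 254, 297 and 709 CPM (lowest, median, highest) in pituitary LP libraries, 382, 542 and 945 CPM at week 12 and 313, 629 and 1147 CPM at week 16. The weeks of the winter state had higher medians but overlapped LP. The log2 fold change at week 16 was 0.83 ± 0.42 (p = 0.0649 in the exact permutation test on plain CPM) and over weeks 12 to 20 it was 0.60 ± 0.35 (adjusted p = 1.00 by edgeR).

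All 6 PVN pairs with an unadjusted p under 0.05 were at week 16 and were lower in SP, 11.5% of the members, where 3.94% of all genes had such a p at that week and 2.72% were also lower. They included Ndufv1, the NADH-binding subunit, with -0.66 ± 0.25, Atp5f1a with -0.49 ± 0.20, Ndufs7, Atp5mc3 and Ndufv2. Ndufv1 read 0, 171 and 323 CPM in LP, where the library at 0 held 159 counts in all, and 45.01, 122 and 199 CPM at week 16. The groups overlapped, and the exact permutation test on plain CPM gave p = 0.474. The adjusted p by edgeR was 1.00 for each of the 6 genes.

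The week 16 PVN group holds a library with 57.5% of its counts in the 10 leading genes and a member sum of 5941 CPM, replicate 3, and another of 5158 total counts, replicate 4. Without replicate 3 of every group the 6 pairs became 1, without replicate 4 they became 3 and without replicate 2 they became 2. With the libraries under 10000 counts left out they were 7. The part of these libraries in the result was not tested further.

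Ndufv1 in PVN had -0.40 ± 0.19 in weeks 12 to 20 against LP and 0.37 ± 0.13 in weeks 24 to 32 against weeks 12 to 20, both with an adjusted p of 1.00 by edgeR. Its eJTK p was 0.03, with an adjusted p of 0.867. Atp5f1a read 0, 374 and 668 CPM in LP and 135, 291 and 381 CPM at week 16, again with overlap.

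In DMH the single pair with an unadjusted p under 0.05 was Atp5md at week 20, with 0.82 ± 0.40 (adjusted p = 0.639 by edgeR). Its plain level at week 20 was 21.6, 105 and 396 CPM against 124, 199 and 497 CPM in LP, so the fitted fold change and the plain medians point opposite ways. The fit scales libraries by TMM factors, which ran from 0.0827 to 6.29 in DMH.

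Within groups pairs of members correlated more than gene pairs at large in MBH and PVN, weakly in pituitary and hardly more in DMH. The median Spearman correlation of 2 members, over the deviations of 54 libraries from their group means, was 0.41 in MBH against 0.17 for all gene pairs, 0.54 against 0.24 in PVN and 0.15 against 0.07 in pituitary. In DMH it was 0.35 against 0.31. Members of the same complex gave 0.40 in MBH and members of different complexes 0.41, which is nearly the same. The member pairs include copies with nearly the same counts, such as Ndufb4, Ndufb4b and Ndufb4c. The points of each correlation share libraries, totals and read depth, and the values are a description.

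Other genes of energy metabolism were tested alongside as lists. Complex II, the other electron carriers, the assembly factors, the tricarboxylic acid cycle and glycolysis had 0 tested genes past FDR 0.1 by edgeR in any contrast or tissue. The same held for the regulators of mitochondrial genes, the ADP carriers and porins, and both sets of ribosomal proteins. In pituitary 0 genes of complex II and of the other electron carriers could be tested, so there is no result for them. Only 1 assembly factor, 1 gene of the tricarboxylic acid cycle, 2 regulators and 3 mitochondrial ribosomal proteins were tested there. PVN also had only 2 regulators tested. In MBH 4 complex II genes, led by Sdhb (156 CPM, winter 0.09 ± 0.14), had a median winter log2 fold change of 0.03, 18 genes of the tricarboxylic acid cycle had 0.02 and 16 of glycolysis -0.01. The 75 mitochondrial ribosomal proteins had -0.01 and the 84 cytosolic ones 0.01, beside 0.07 for the members. At an unadjusted winter p under 0.05 by edgeR the tricarboxylic acid cycle had 3 of 18 genes, glycolysis 1 of 16 and complex II 0 of 4. Of all MBH genes 3.68% had such a p.

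In DMH 15 glycolysis genes had a winter median of -0.68 and 16 of the tricarboxylic acid cycle -0.54, against 0.01 for the members and -0.31 for all genes, with 0 past FDR 0.1 and 0 at an unadjusted p under 0.05 in both lists. The cytosolic ribosomal proteins there had 0.27 with 2 of 86 at an unadjusted p under 0.05, against 5.95% of all genes. Mitochondrially encoded subunits were read in pituitary and DMH, where 2 and 6 of them could be tested. Their winter medians were 0.16 in pituitary and -0.26 in DMH, with 0 past FDR 0.1 and 0 at an unadjusted p under 0.05, and COX1 of complex IV averaged 85.3 CPM in DMH.

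Genes of the marker lists passed FDR 0.1 in MBH and pituitary, whereas 0 of those tested did in PVN and DMH. In MBH the thyrotropin beta gene Tshb, made in the pars tuberalis that adjoins this dissection, had -8.59 ± 0.85 in weeks 12 to 20 against LP and Cga, its alpha subunit, -3.42 ± 0.75, with adjusted p of 1.58e-11 and 0.0109 by edgeR. Vim, a filament of tanycytes, fell by 1.44 on the log2 scale (adjusted p = 0.00641), and Tnnt3, a muscle troponin at a mean of 9.09 CPM, was also lower (adjusted p = 0.0109). In pituitary prolactin (Prl) fell by 4.03 ± 0.25 (adjusted p = 6.07e-19) and rose by 3.39 ± 0.18 in the return phase (adjusted p = 8.84e-19). Markers of neurons, oligodendrocytes, astrocytes, microglia and blood had 0 tested genes past FDR 0.1. In pituitary 0 oligodendrocyte and 0 microglia markers could be tested, and in PVN 0 blood markers. In MBH the 6 tested oligodendrocyte markers had a winter median of -0.80, with 3 at an unadjusted p under 0.05, against 3.68% of all genes. Their part in the member values was not tested.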

How the data were processed

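The authors read cDNA on Oxford Nanopore flow cells, aligned it with minimap2 to the mouse genome and deposited estimated counts per transcript from Salmon, unnormalised and filtered for expression, in 1 table per tissue. The labels name a PCR-cDNA kit for all libraries and the methods a direct cDNA kit for the pituitary. Which annotation underlies the PVN table is not stated in the labels or methods. Isoform rows were summed per symbol and rounded, and Gm32262 and Lars2 were dropped from each total.

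Groups came from the labels, which call LP and SP long and short days. Each tissue was fitted apart, all 9 groups together, with edgeR 4.0.16 (R 4.3.3): filterByExpr, TMM factors, the quasi-likelihood F-test and Benjamini-Hochberg adjustment over all genes tested, with FDR under 0.1 as the threshold. SEs and 95% intervals used 45 residual degrees of freedom. DESeq2 1.42.0 was the alternative tool. Rhythm was tested by eJTK over 3732 waveforms with 100000 random orders. Printed levels are plain CPM. Single member levels were compared by a two-sided exact permutation test of 924 splits, whose smallest p is 0.00216. Intervals and tests describe the spread between hamsters. The procedures were tested on simulated data.

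Members and gene lists were chosen with earlier results of these data known, and the grouping of subunits by role was made after values were seen. Members named are those with the 5 smallest p over the groups in a tissue, the highest mean of each complex, the complex IV paralogue pairs, untested or partly listed members, and from other lists the called genes or the highest mean. Ndufv3, Cox6a1 and the members named for week 16 or by role were added after their values were seen, and 1 item is not reported here. No 2 libraries of the same group were identical. Alternatives were other scalings, no filter, other tools, the best isoform, both dropped genes kept, shallow libraries left out, a replicate block and each replicate left out.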

Additional observations from a re-analysis of the deposited data

Results flagged for a closer look

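Libraries that lay far from the other 5 of their group were sought in 36 groups of summed levels and 108 groups of single members, where chance gives about 1 in 20, and 11 were found. An MBH library of 4 weeks SP had a member sum of 3713 CPM, the lowest of its group, with 83.2% of its counts in the 10 leading genes. A PVN library of 16 weeks SP had the low sum of 5941 CPM, with 57.5% in the leading genes. A DMH library of 32 weeks SP had the high sum of 11985 CPM, with 49.4% in the leading genes.

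Ndufb2 read 360 CPM in a pituitary library of 32 weeks SP and 629 CPM in a PVN library of 12 weeks SP, each the highest of its group. Pituitary Ndufs1 read 17.7 CPM in an LP library, where the other 5 held 0 to 5.47 CPM, and 215 CPM in a library of 28 weeks SP, where the other 5 held 0 to 28.1 CPM. Pituitary Atp5g3 read 709 CPM in an LP library and 1107 CPM in a library of 24 weeks SP. Ndufv1 read 304 CPM in a PVN library of 12 weeks SP, and Atp5md read 273 CPM in a DMH library of 32 weeks SP, again the highest of their groups.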

How the results depend on the processing

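The count of members called was recomputed for 5 tests in each of 4 tissues, 20 counts under 340 alternatives, and was 0 in 339 of them. The exception was eJTK in MBH on genes preselected for a difference between groups, which called 1 member, Ndufb2 (adjusted p = 0.0469). That preselection used the same values and left 1 member to test. Without TMM factors the median winter log2 fold change of the DMH members moved to -0.83, where the median over all genes was -1.06, and that of MBH turned from 0.07 to -0.15, where all genes had -0.27. Leaving out each replicate in turn gave medians of 0.00 to 0.13 in MBH, 0.12 to 0.29 in pituitary, -0.12 to 0.06 in PVN and -0.07 to 0.13 in DMH, and counts of 0 throughout. Aside from the preselection, the smallest adjusted p of any member was 0.107 in MBH, 0.267 in pituitary, 0.664 in PVN and 0.183 in DMH. The replicate block changed no count: 0 members were called with it. In MBH, pituitary, PVN and DMH 47, 65, 58 and 92 of 216 same-numbered pairs correlated over 0.1, so the numbers were not taken as a pairing, but 29, 38, 26 and 24 of 54 libraries correlated best with their own number, where 9 would if the number had no part. That is a hint from the data that a number marks something shared, which the labels do not name. The 28 values of single members kept their side of the threshold under all 470 alternatives. Depth limits the pituitary most, where 17 of 89 members could be tested.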
